A study of Mus musculus with 11 samples.

Results

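The levels of 10 genes for fibronectin and the matricellular glycoproteins, Fn1, Sparc, Tnc, Postn, Thbs1, Thbs2, Fbn1, Fbln2, Spp1 and Tgfbi, were followed through 4 states of HER2 expression in mouse mammary carcinoma cells. The genes were chosen by symbol, and all 10 were found among the 21846 genes of the count table. The cell lines came from mammary tumors of FVB female mice carrying a human HER2 transgene, and every line carries that transgene. MamBo89HER2stable (tumor A) kept HER2, MamBo43HER2labile (tumor B) was HER2-positive in culture, and MamBo38HER2loss was established from a tumor that grew after injection of MamBo43 cells and has no surface HER2. MamBo43 TRT are MamBo43 cultures that were seeded at high density, given the anti-HER2 antibody trastuzumab at 30 µg/ml and had lost HER2. According to the paper, a minor share of HER2-positive cells persisted in such treated cultures. The 5 HER2-positive libraries were 4 of MamBo89 (2 untreated, 1 after 30 days with trastuzumab and 30 days without it, 1 after 60 days with trastuzumab) and 1 of untreated MamBo43. The 6 HER2-negative libraries were 2 of MamBo43 TRT (1 for each schedule) and 4 of MamBo38 (2 untreated, 1 for each schedule). Below, the MamBo89 and MamBo38 values are given in that order. Tumor A gave only HER2-positive libraries, so HER2 status and tumor are partly tied, and MamBo43 had 1 library, which the tests assume to vary like the other groups.

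Fibronectin is the large glycoprotein that cells assemble into fibrils through integrins, and other matrix proteins are laid down on it. Fibrillin-1 forms the microfibrils that hold latent TGF-β and elastin. The matricellular glycoproteins (SPARC, tenascin C, periostin, thrombospondins, osteopontin and TGFBI) bear little load and instead bind collagens, growth factors and integrins, and in mammary tissue many of them come largely from stromal cells or from carcinoma cells in a mesenchymal state. Because the RNA is from whole cultures, fewer cells that make a transcript and less transcript per cell cannot be told apart.

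The stretches upstream of the transcription start are shown for 5 genes whose levels between MamBo43, MamBo43 TRT and MamBo38 went in contrasting directions: Thbs2 and Tgfbi, which were near 0 in MamBo89 and high in MamBo38, Postn and Tnc, which were low in MamBo38, and Spp1, which was abundant in nearly all libraries. The sequences are from RefSeq on GRCm38.p6 and read 5′ to 3′ on the gene's strand, and the capitals mark matches to 7 motifs on either strand. Thbs2 has chr17:14694263-14694512 (minus strand), Tgfbi chr13:56609336-56609522 (plus strand, cut where the annotated transcript begins), Postn chr3:54360857-54361106 (plus strand), Tnc chr4:64047016-64047265 (minus strand) and Spp1 chr5:104434861-104435110 (plus strand).
Thbs2: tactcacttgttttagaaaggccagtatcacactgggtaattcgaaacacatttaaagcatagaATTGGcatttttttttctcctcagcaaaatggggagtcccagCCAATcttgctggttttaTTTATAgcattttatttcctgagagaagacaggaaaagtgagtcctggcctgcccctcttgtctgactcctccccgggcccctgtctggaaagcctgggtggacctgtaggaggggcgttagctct
Tgfbi: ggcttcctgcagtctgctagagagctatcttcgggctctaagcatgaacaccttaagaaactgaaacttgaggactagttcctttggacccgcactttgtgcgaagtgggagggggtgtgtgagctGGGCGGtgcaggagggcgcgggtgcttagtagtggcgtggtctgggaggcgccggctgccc
Postn: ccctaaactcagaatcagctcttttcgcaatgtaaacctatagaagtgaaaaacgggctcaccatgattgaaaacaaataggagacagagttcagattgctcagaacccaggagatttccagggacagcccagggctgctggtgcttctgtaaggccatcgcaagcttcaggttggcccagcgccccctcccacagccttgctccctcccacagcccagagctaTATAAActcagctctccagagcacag
Tnc: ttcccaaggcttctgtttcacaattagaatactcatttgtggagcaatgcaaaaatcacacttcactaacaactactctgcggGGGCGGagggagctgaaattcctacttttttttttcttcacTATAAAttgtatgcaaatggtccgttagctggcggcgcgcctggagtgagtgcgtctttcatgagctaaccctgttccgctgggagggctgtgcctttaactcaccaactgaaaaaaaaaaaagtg
Spp1: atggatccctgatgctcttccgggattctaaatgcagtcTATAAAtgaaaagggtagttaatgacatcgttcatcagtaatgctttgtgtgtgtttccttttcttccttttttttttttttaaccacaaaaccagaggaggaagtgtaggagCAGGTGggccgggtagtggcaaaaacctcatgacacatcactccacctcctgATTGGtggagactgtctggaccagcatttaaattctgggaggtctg

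RefSeq promoters were found for 8 of the 10 genes, all but Fn1 and Thbs1, and the 250 bases before each start were searched. A TATA box (TATAAA) was found for Tnc, Postn, Thbs2 and Spp1, and 12.4% of all 32817 such windows of the mouse genome hold one. In Postn it lay 26 bases before the start, whereas in Thbs2, Tnc and Spp1 the exact match began 126 bases or more away. Variants of the motif letters were not searched, so a TATA-like element nearer the start is not excluded. A GC box (GGGCGG) was found for Tnc, Fbn1, Fbln2 and Tgfbi (32.7% of all windows), and a CCAAT box (CCAAT) for Thbs2 and Spp1 (33.8%). The E-box CAGGTG was found for Spp1 (17.2%). No match was found for the AP-1 motif TGANTCA (6.75% of all windows), the cAMP response element TGACGTCA (1.55%) or the TEAD motif CATTCC (12.6%). A match is a run of letters and says nothing about binding. Each motif was also read as its reverse complement.

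Total counts ranged from 17040454 to 27127662 over the 11 libraries, and 3 counts corresponded to 0.112 to 0.179 CPM (counts over the library size in units of 1e6, here scaled by the TMM method). The mouse Erbb2 row held 117 CPM in MamBo43, between 134 and 167 CPM in MamBo89, 31.6 and 19.9 CPM in MamBo43 TRT, and between 17.7 and 24.0 CPM in MamBo38. The summed level of 8 epithelial markers was between 2489 and 3834 CPM in MamBo89 and 3403 CPM in MamBo43, where Krt5 and Krt19 had no count. In MamBo43 TRT it was 2398 CPM when 30 days of trastuzumab were followed by 30 days off it, and 489 CPM after 60 days, and in MamBo38 it was between 1.35 and 2.73 CPM. The summed level of 9 fibroblast markers was at most 98.2 CPM in MamBo89, 358 CPM in MamBo43, 7397 and 8135 CPM in MamBo43 TRT and between 4201 and 4978 CPM in MamBo38; Lum had no count in any library, and Dcn and Thy1 had none in MamBo89. Summed immune, endothelial and adipocyte markers reached at most 50.1, 0.893 and 2.67 CPM. A library each of MamBo89 and MamBo38 stood apart from the others of its line. The untreated MamBo89 library whose title carries an additional code, listed first, differed from the other MamBo89 libraries by at least 2-fold in 1676 to 2182 genes above 5 CPM, against 54 to 257 genes among the others. The second untreated MamBo38 library, the only one of that line whose title ends in the same numeric code as the libraries of the other lines, differed from the other 3, which share another code, in 556 to 715 genes, against 9 to 13 among the others.

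Comparing HER2-negative with HER2-positive libraries, 5 of the 10 genes rose and none fell by edgeR's quasi-likelihood test (adjusted p under 0.1 and a log2 fold change of at least 1), where 32.8% of the 12364 genes tested were called in either direction. The genes that rose, Fn1, Sparc, Thbs2, Fbn1 and Tgfbi, were also those whose 6 HER2-negative libraries all lay above the 5 HER2-positive ones, a separation found in 34.9% of all genes tested in one direction or the other. By direction, 15.8% of all genes tested were called higher and 17% lower. Tumor A has no HER2-negative library, so a fit with the tumor as a covariate takes the HER2 change from tumor B alone. There MamBo43 is the 1 HER2-positive library. With the tumor of origin as a covariate the count was 4 higher and 2 lower, since Sparc lost its call (adjusted p = 0.425) and Thbs1 (-3.19, adjusted p = 0.0417) and Fbln2 (-3.79, adjusted p = 0.0468) were called lower. Across the lines and cultures, 7 genes were called between MamBo38 and MamBo89 (41.9% of all genes), 5 of them higher in MamBo38 (19.9% of all genes) and 2 lower (22%), and these 7 did not overlap between the lines, as was the case for 59.3% of all genes. MamBo38 differed from MamBo43 in 8 genes (35.9% of all genes), 4 of them higher (17.4%) and 4 lower (18.5%). MamBo43 TRT differed from MamBo43 in 8 genes (29.1%), 5 of them higher (13.6%) and 3 lower (15.5%). Untreated MamBo43 differed from MamBo89 in 8 genes (18.9%), 7 of them higher (11%) and 1 lower (7.86%). MamBo43 TRT differed from MamBo38 in 6 genes (20.4%), 4 of them higher (10.2%) and 2 lower (10.2%). None of the 10 genes overlapped between these groups, and 58.6% of all genes likewise did not overlap. MamBo43 TRT differed from MamBo89 in 9 genes (39%), 8 of them higher (18.1%) and 1 lower (20.8%). All 10 genes passed the filter on low counts in every comparison, although Thbs2 and Tgfbi passed through the groups in which they are high. These comparisons share libraries and are not independent of each other. The median log2 fold change of the 10 genes between HER2-negative and HER2-positive libraries was 1.65, against -0.04 for all genes tested.

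**Figure D1:**
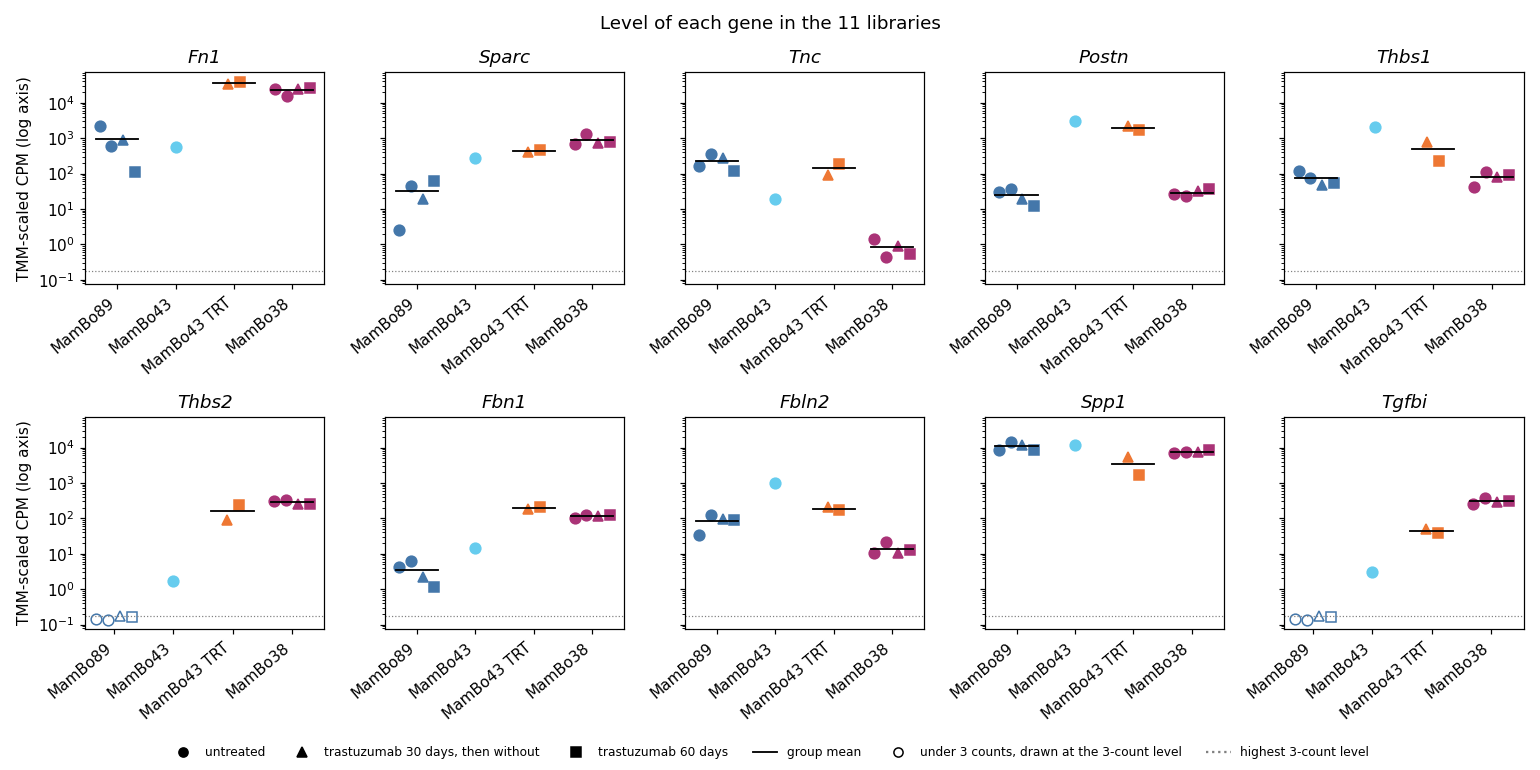
TMM-scaled CPM of the 10 genes (log axis) in the 11 libraries, by group, with circles for untreated cultures, triangles for 30 days with trastuzumab and 30 days without, squares for 60 days, and lines for group means where there are at least 2 libraries. Fn1, Thbs2, Fbn1 and Tgfbi were highest in MamBo43 TRT or MamBo38, Postn, Thbs1 and Fbln2 in MamBo43, and Tnc in MamBo89, with 0.446 to 1.40 CPM in MamBo38; open symbols have under 3 counts and are drawn at the 3-count level.

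Fn1 (chr1:71585520-71653200, minus strand; gene spans are those of GENCODE M21 on GRCm38), fibronectin, showed the largest difference in CPM between HER2-negative and HER2-positive libraries among the 10 genes. It was at 2250, 587, 857 and 113 CPM in the MamBo89 libraries, 560 CPM in MamBo43, 34145 CPM and 39704 CPM in MamBo43 TRT, and 23766, 15589, 25067 and 25274 CPM in MamBo38. It was the most counted gene of the whole table in each of the 6 HER2-negative libraries, whereas it ranked 211th in MamBo43 and between 12th and 1841st in MamBo89. Fn1 alone took 1.56% to 3.87% of all counts in the HER2-negative libraries. HER2-negative over HER2-positive libraries gave a log2 fold change of 4.96 ± 0.68 (SE, adjusted p = 0.000143). It was 5.33 ± 1.46 for MamBo38 over MamBo43 (adjusted p = 0.0139) and 6.05 ± 1.55 for MamBo43 TRT over MamBo43 (adjusted p = 0.0146). MamBo43 TRT and MamBo38 did not differ by the test (0.72 ± 0.77, adjusted p = 0.516), nor did MamBo43 and MamBo89 (-0.77 ± 1.07, adjusted p = 0.662). Within MamBo89 the highest and lowest libraries differed 20.0-fold in Fn1 and 24.4-fold in Sparc, and by at most 5.46-fold in the other genes counted in all 4 libraries. The second MamBo38 library held the lowest level of its line, and without it the contrast of HER2-negative over HER2-positive libraries was 5.11. Without the first MamBo89 library, the highest of its line, the contrast was 5.71, and without the fourth MamBo89 library it was 4.67.

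**Figure D2:**
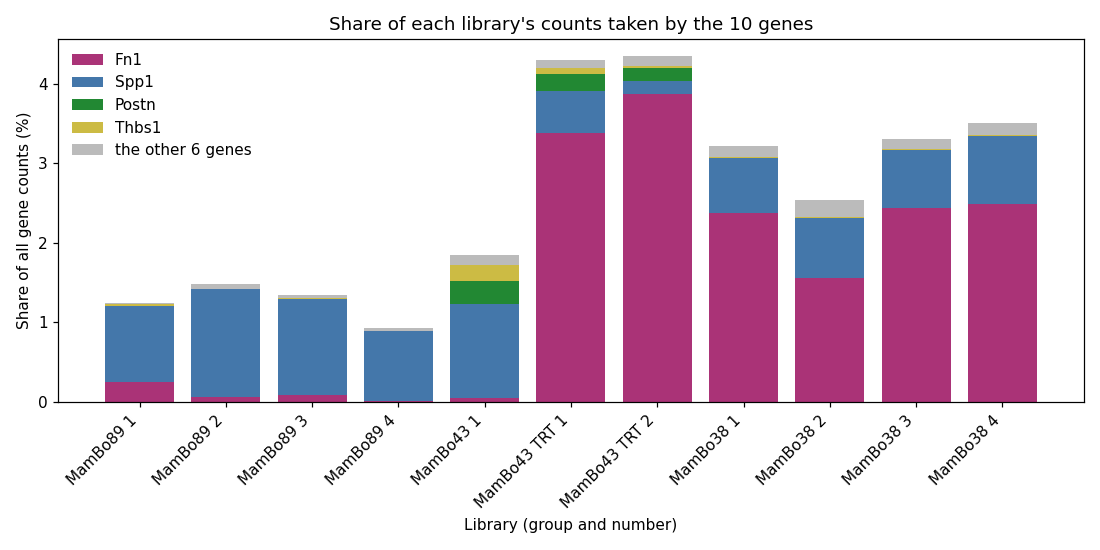
Share of all gene counts (%) taken by the 10 genes in each of the 11 libraries, stacked by gene. The 10 genes took 0.926% to 1.48% in MamBo89, 1.85% in MamBo43, 4.31% and 4.35% in MamBo43 TRT and 2.54% to 3.50% in MamBo38, mostly as Fn1 in the HER2-negative libraries and as Spp1 in the HER2-positive ones.

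Fbn1 (chr2:125300594-125507993, minus strand), which encodes the microfibril protein fibrillin-1, was at 4.31, 6.31, 2.27 and 1.16 CPM in MamBo89, 14.9 CPM in MamBo43, 184 CPM and 211 CPM in MamBo43 TRT, and 100, 121, 115 and 126 CPM in MamBo38. All 6 HER2-negative libraries were thus above the HER2-positive ones, with MamBo43 between MamBo89 and the rest. Fbn1 rose by 4.61 ± 0.61 (log2 fold change ± SE) between HER2-positive and HER2-negative libraries (adjusted p = 0.000117), 3.73 ± 0.73 for MamBo43 TRT over MamBo43 (adjusted p = 0.0041), and 2.07 ± 0.52 for MamBo43 over MamBo89 (adjusted p = 0.0183), the last a call that was lost when these 2 lines were fitted alone (2.12, adjusted p = 0.155). MamBo43 TRT over MamBo38 gave 0.78 ± 0.41 (adjusted p = 0.176). The contrast of HER2-negative over HER2-positive libraries was 5.33 without the MamBo43 library, and 3.25 to 4.89 under the alternative settings. Of the 75-base windows of its transcripts, 19.6% also occur in Gm9913, an annotated gene on the opposite strand, and the library kit does not keep strand.

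The 2 thrombospondins, trimeric proteins that bind CD47, integrins and matrix proteases, moved in opposite directions from MamBo43 to its derivatives, Thbs2 up and Thbs1 down, while both were higher in MamBo43 than in MamBo89. Thbs2 (chr17:14665500-14694235, minus strand) had 0, 0, 0 and 1 counts in the MamBo89 libraries and 42 counts (1.65 CPM) in MamBo43. It was at 87.1 CPM and 241 CPM in MamBo43 TRT and at 305, 325, 258 and 256 CPM in MamBo38. In all, 23318 counts in MamBo38 stood against 1 in MamBo89, a ratio of 22045 per unit of library size with a 95% exact interval of 3956 to 870752 that covers counting error only. Its log2 fold change was 6.64 ± 0.69 for MamBo43 TRT over MamBo43 (adjusted p = 0.000169) and 7.44 ± 0.71 for MamBo38 over MamBo43 (adjusted p = 2.06e-05). The former was 5.72 without the 60-day culture and 7.17 without the other treated culture. Between HER2-negative and HER2-positive libraries the Thbs2 change was 9.33 ± 1.16 (adjusted p = 7.25e-05), and 13.7 without the MamBo43 library. MamBo43 TRT over MamBo38 gave -0.80 ± 0.34 (adjusted p = 0.102), and -1.72 without the 60-day culture (adjusted p = 0.00349).

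Thbs1 (chr2:118111876-118127133, plus strand) was at 120, 74.2, 47.3 and 54.9 CPM in MamBo89 and at 2024 CPM in MamBo43, where it ranked 25th of all genes. It was at 788 CPM and 229 CPM in MamBo43 TRT and at 40.5, 108, 79.4 and 90.9 CPM in MamBo38. MamBo89 and MamBo38 overlapped, and MamBo43 lay above all of their libraries. The log2 fold change was -4.66 ± 0.58 for MamBo38 over MamBo43 (adjusted p = 0.000124), 4.77 ± 0.58 for MamBo43 over MamBo89 (adjusted p = 0.000336), and 0.10 ± 0.43 for MamBo38 over MamBo89 (adjusted p = 0.843). For MamBo43 TRT over MamBo43 it was -1.99 ± 0.71 (adjusted p = 0.0557), a call that was lost without the 60-day culture (-1.36, adjusted p = 0.217) and was -3.17 without the other. It was also lost when the 3 MamBo38 libraries of the other code were left out of the fit (adjusted p = 0.101), or when the fit held only MamBo43 and its treated cultures (adjusted p = 0.122). MamBo43 TRT over MamBo38 gave 2.67 ± 0.50 (adjusted p = 0.00351), with 1.54 without the culture of 30 days on and 30 days off the antibody, and lost its call without the 3 MamBo38 libraries of the other code (2.23, adjusted p = 0.152).

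Postn and Tgfbi encode the fasciclin-domain proteins periostin and TGFBI, which bind integrins and collagen, and their patterns differed. Postn (chr3:54361109-54391037, plus strand) was at 29.2, 36.8, 18.7 and 12.1 CPM in MamBo89, 2957 CPM in MamBo43, 2225 CPM and 1706 CPM in MamBo43 TRT, and 26.1, 22.4, 31.3 and 36.1 CPM in MamBo38. MamBo43 and its treated cultures were high, while MamBo38, which came from MamBo43, overlapped with MamBo89. The log2 fold change was -6.67 ± 0.43 for MamBo38 over MamBo43 (adjusted p = 1.85e-06), 6.08 ± 0.39 for MamBo43 TRT over MamBo38 (adjusted p = 9.26e-06), and 6.93 ± 0.43 for MamBo43 over MamBo89 (adjusted p = 3.59e-06). MamBo43 TRT over MamBo43 gave -0.59 ± 0.51 (adjusted p = 0.413). The HER2 comparison, which has a high group on either side, gave 0.14 ± 1.74 for Postn (adjusted p = 0.952), and 4.80 without the MamBo43 library (adjusted p = 0.0324).

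Tgfbi (chr13:56609523-56639562, plus strand) had 0, 0, 0 and 1 counts in MamBo89 and 80 counts (3.14 CPM) in MamBo43. It was at 51.1 CPM and 39.2 CPM in MamBo43 TRT and at 263, 386, 287 and 310 CPM in MamBo38. The 4 groups did not overlap, and each step in this order was past both thresholds. The log2 fold change was 3.85 ± 0.38 for MamBo43 TRT over MamBo43 (adjusted p = 0.000133) and -2.79 ± 0.25 for MamBo43 TRT over MamBo38 (adjusted p = 3.8e-05). Between HER2-negative and HER2-positive libraries it was 8.33 ± 1.45 (adjusted p = 0.000668), and 13.5 without the MamBo43 library, when the HER2-positive side held 1 count in all. Counts in MamBo43 exceeded those in MamBo89 by a ratio of 244 per unit of library size (95% exact interval 42.5 to 9744).

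Sparc (chr11:55394500-55423183, minus strand), a collagen-binding glycoprotein of the matrix, was at 2.52, 43.4, 19.0 and 61.4 CPM in MamBo89, 280 CPM in MamBo43, 406 CPM and 459 CPM in MamBo43 TRT, and 700, 1273, 747 and 780 CPM in MamBo38. Its levels rose from MamBo89 over MamBo43 and MamBo43 TRT to MamBo38 without overlap, but of these steps 1 was past both thresholds, that from MamBo89 to MamBo43 (3.15 ± 0.88, adjusted p = 0.0299). That call was lost without the 3 MamBo38 libraries of the other code (adjusted p = 0.103) and in a fit of the compared libraries alone (adjusted p = 0.146). In such fits the step from MamBo43 TRT to MamBo38 was called (-1.01 for MamBo43 TRT over MamBo38, adjusted p = 0.0174), as was MamBo38 over MamBo43 (1.60, adjusted p = 0.0124). MamBo43 TRT over MamBo43 gave 0.63 ± 1.14 (adjusted p = 0.708) and MamBo38 over MamBo43 1.65 ± 1.14 (adjusted p = 0.273). HER2-negative libraries were higher than HER2-positive ones by 3.16 ± 0.92 (adjusted p = 0.0137), and by 4.52 without the MamBo43 library. The call was lost with the tumor of origin as a covariate (1.37, adjusted p = 0.425), a fit that rests on the 1 MamBo43 library. Without the first MamBo89 library, in which Sparc was lowest, MamBo38 over MamBo43 (1.60, adjusted p = 0.0313) and MamBo43 TRT over MamBo38 (lower, adjusted p = 0.0656) were also called.

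Tnc (chr4:63959785-64047015, minus strand), tenascin C, a hexameric glycoprotein that modulates adhesion to fibronectin, was at 160, 358, 277 and 120 CPM in MamBo89 and 19.3 CPM in MamBo43. It was at 92.6 CPM and 187 CPM in MamBo43 TRT, and at 1.40, 0.446, 0.894 and 0.525 CPM in MamBo38, which is 8 to 29 counts a library. MamBo38 was thus lowest, and MamBo43 TRT lay above MamBo43 and overlapped with MamBo89. The log2 fold change was 2.86 ± 0.75 for MamBo43 TRT over MamBo43 (adjusted p = 0.0162), -4.56 ± 0.59 for MamBo38 over MamBo43 (adjusted p = 0.000155), and 7.42 ± 0.55 for MamBo43 TRT over MamBo38 (adjusted p = 1.46e-05). MamBo43 TRT and MamBo89 did not differ by the test (-0.71 ± 0.47, adjusted p = 0.223).

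Fbln2 (chr6:91212455-91272540, plus strand), fibulin-2, which binds fibronectin and fibrillin, was at 34.6, 124, 98.3 and 88.9 CPM in MamBo89, 989 CPM in MamBo43, 207 CPM and 168 CPM in MamBo43 TRT, and 10.8, 21.3, 10.6 and 12.9 CPM in MamBo38. No groups overlapped, and every step from MamBo43 over MamBo43 TRT and MamBo89 to MamBo38 was past both thresholds. The log2 fold change was -2.40 ± 0.58 for MamBo43 TRT over MamBo43 (adjusted p = 0.0111), -6.15 ± 0.49 for MamBo38 over MamBo43 (adjusted p = 6.38e-06), and -2.64 ± 0.37 for MamBo38 over MamBo89 (adjusted p = 0.000125). For HER2-negative over HER2-positive libraries it was -1.90 ± 1.08 (adjusted p = 0.162). It was called at -3.79 with the tumor of origin as a covariate (adjusted p = 0.0468), a fit that rests on the 1 MamBo43 library. It was also called at -2.59 without the MamBo43 TRT culture of 30 days on and 30 days off (adjusted p = 0.0794).

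Spp1 (chr5:104435118-104441050, plus strand), osteopontin, a secreted ligand of αv integrins and CD44, was at 8510, 13948, 12030 and 8703 CPM in MamBo89, 12132 CPM in MamBo43, 5294 CPM and 1676 CPM in MamBo43 TRT, and 6890, 7577, 7494 and 8746 CPM in MamBo38. It was among the 5 most counted genes of every library except the 60-day MamBo43 TRT culture, where it ranked 44th. MamBo43 TRT lay below all other libraries, by -1.80 ± 0.52 against MamBo43 (adjusted p = 0.0256), and by -1.14 ± 0.41 against MamBo38 (adjusted p = 0.0578). The latter call was lost without the 60-day culture (-0.54, adjusted p = 0.305), and without the fourth MamBo38 library (-1.07, adjusted p = 0.113). It was lost as well with the title code as a covariate (-1.12, adjusted p = 0.188) and without the 3 MamBo38 libraries of the other code (-1.12, adjusted p = 0.323). Without the other treated culture, Spp1 was at -2.88 against MamBo43 and -2.18 against MamBo38, and without the 60-day culture at -1.19 against MamBo43. The former was lost when MamBo43 and its treated cultures were fitted alone (adjusted p = 0.133). MamBo38 and MamBo89 did not differ by the test (-0.49 ± 0.32, adjusted p = 0.198). The HER2 comparison gave -0.82 ± 0.34 (adjusted p = 0.0652), under the minimum change, and Spp1 was called lower with the title code as a covariate (-1.19, adjusted p = 0.0373) or without the 3 MamBo38 libraries of the other code (-1.18, adjusted p = 0.0849). Of its 75-base windows, 8.55% also occur in Gm42793, an annotated gene on the same strand.

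**Figure D3:**
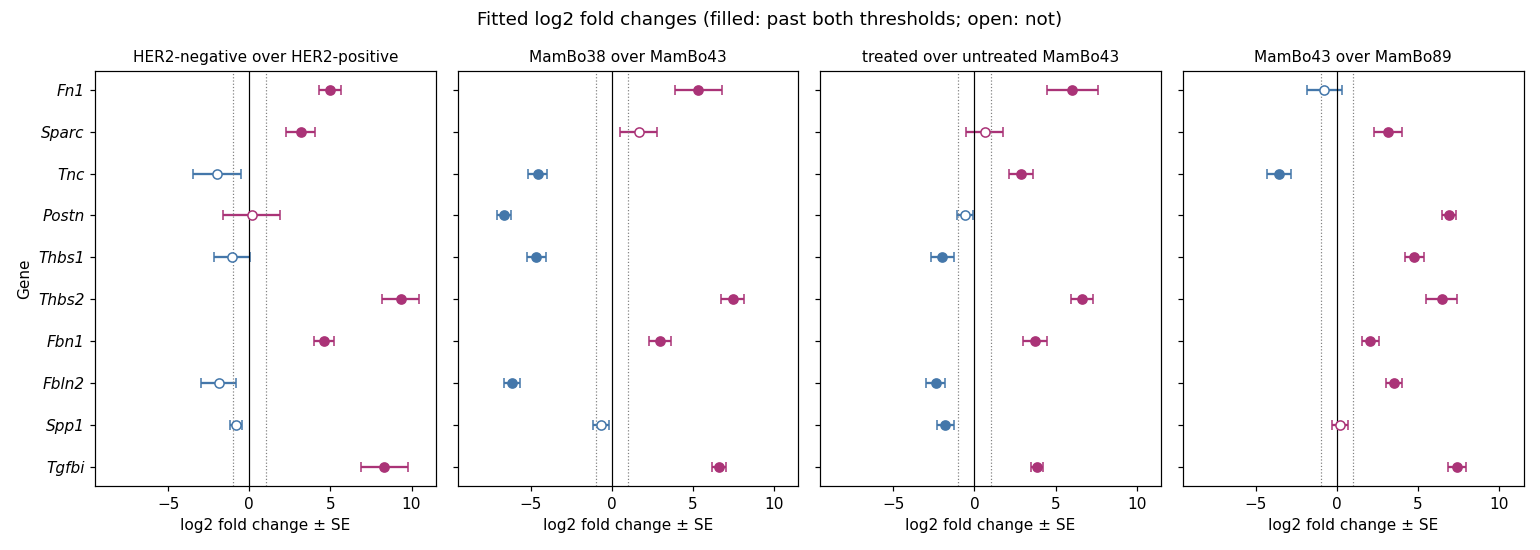
Fitted log2 fold change ± SE of the 10 genes in 4 comparisons, with red above 0, blue below 0, filled symbols for genes past both thresholds and dotted lines at a change of 1. Fn1, Thbs2, Fbn1 and Tgfbi were higher in both MamBo38 and MamBo43 TRT than in MamBo43, whereas Tnc fell in MamBo38 (-4.56) and rose in MamBo43 TRT (2.86).

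Set side by side, both derivatives of MamBo43 that were grouped as HER2-negative shared a part of the change. Fn1, Thbs2, Fbn1 and Tgfbi rose and Thbs1 and Fbln2 fell in each of them relative to the same MamBo43 library. Tnc rose in MamBo43 TRT and fell in MamBo38, Postn fell in MamBo38 and was at -0.59 ± 0.51 in MamBo43 TRT, and Spp1 fell in MamBo43 TRT and was at -0.66 ± 0.48 in MamBo38. The direct comparison of MamBo43 TRT with MamBo38 called Tnc, Postn, Thbs1 and Fbln2 higher and Spp1 and Tgfbi lower. As both contrasts rest on the 1 untreated library, an error in its level would move them together.

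Both MamBo43 TRT cultures were compared as values, since each schedule had 1 library. Relative to untreated MamBo43, the culture after 30 days with and 30 days without trastuzumab kept 75.3% of the Postn level, 43.6% of Spp1, 38.9% of Thbs1 and 21.0% of Fbln2. The 60-day culture kept 57.7% of Postn, 13.8% of Spp1, 11.3% of Thbs1 and 17.0% of Fbln2. Over the same cultures the epithelial genes Cdh1 (E-cadherin) and Epcam stood at 25.9% and 25.0% after the first schedule and at 9.26% and 4.84% after 60 days. Other epithelial markers went otherwise. Krt14 lay between 9.91 and 111 CPM in the treated cultures, against 2.39 CPM untreated, and Krt7 between 97.6 and 643 CPM, against 261 CPM. Of 7 epithelial markers tested for MamBo43 TRT over MamBo43, 2 were called higher and 2 lower (29.1% of all genes called). Spp1 and Thbs1 were lower in the culture with the lower epithelial marker sum (489 CPM, against 2398 CPM), by 3.16-fold and 3.44-fold. Postn, Tgfbi and Fbln2 were lower there by 1.30-fold, 1.30-fold and 1.24-fold. Thbs2 and Tnc were higher in the 60-day culture, by 2.77-fold and 2.02-fold, and Fn1, Sparc and Fbn1 by 1.13-fold to 1.16-fold. The part of the epithelial cells in these values was not tested.

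**Figure D4:**
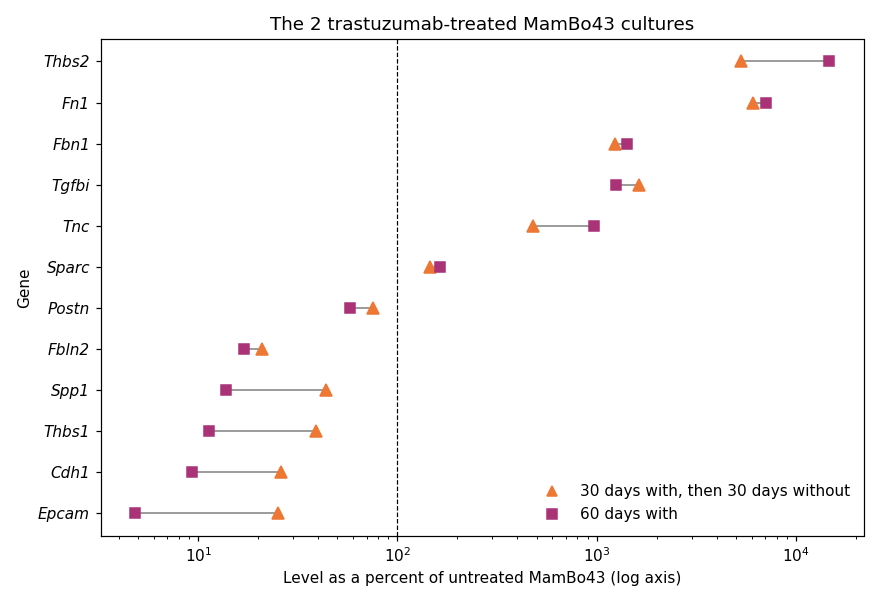
Level of the 10 genes, with Cdh1 and Epcam, in the 2 MamBo43 TRT cultures as a percent of the untreated MamBo43 library (log axis, dashed line at 100%), with triangles for 30 days with and 30 days without trastuzumab and squares for 60 days with it. Thbs1, Spp1, Cdh1 and Epcam were at 25.0% to 43.6% in the first culture and at 4.84% to 13.8% in the second, and Thbs2 and Fn1 were at 5287% or more in both.

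Trastuzumab in the lines that did not change HER2 status was examined next. None of the 10 genes was called in MamBo89 (2 treated and 2 untreated libraries) or in MamBo38 (2 and 2) by edgeR's quasi-likelihood test, which called 0% of all genes in either line. In each line, 1 of the 2 untreated libraries was the one that stood apart. In MamBo89 it is the library taken as the clone. In MamBo38 it is the only library of its title code, so treatment and code are partly tied. The lack of calls therefore does not show that trastuzumab had no effect. At an unadjusted p under 0.05 there were 2 of the 10 genes in MamBo89 and 0 in MamBo38, with 724 and 230 of all 13782 genes. DESeq2 called 29 of all genes in MamBo89, among them 2 of the 10, and in MamBo38 it called 1 gene, which was not among the 10. Fbn1 was at 4.31 and 6.31 CPM untreated and at 2.27 and 1.16 CPM treated (-1.64 ± 0.32, adjusted p = 0.721 by edgeR, adjusted p = 0.00937 by DESeq2). Postn was at 29.2 and 36.8 CPM untreated and at 18.7 and 12.1 CPM treated (-1.11 ± 0.26, adjusted p = 0.721 by edgeR, adjusted p = 0.0615 by DESeq2). Fbn1, Postn and Thbs1 were lower in both treated than in both untreated MamBo89 libraries, and 26% of all genes separated in one direction or the other. In MamBo38 the changes of Fbn1 and Postn were 0.13 ± 0.26 and 0.48 ± 0.26. The treatments were at 30 µg/ml in every line.

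The change under trastuzumab in MamBo43 was tested against that in the other lines with an interaction term. The untreated pairs of MamBo89 and MamBo38 in these tests include the libraries that stood apart. Against MamBo89, 4 of the 10 genes were called (3 higher, 1 lower; 22.2% of all genes, 11.1% higher and 11.2% lower): Fn1 by 7.60 ± 1.67 (adjusted p = 0.0223), Fbn1 by 5.37 ± 0.50 (adjusted p = 0.0022), Tnc by 3.25 ± 0.94 (adjusted p = 0.0508) and Fbln2 by -2.62 ± 0.80 (adjusted p = 0.0583). The Fn1 difference was 6.30 without the first MamBo89 library and 9.71 without the third. For Fbln2 it was -2.01 without the first MamBo89 library and -3.82 without the second. Thbs2 and Tgfbi had at most 1 count in MamBo89, so their difference carries no information. Against MamBo38, 5 were called by edgeR with the filter on low counts, all higher (19.6% of all genes; 11% higher and 8.63% lower): Fn1 by 5.69 ± 1.56 (adjusted p = 0.0459), Thbs2 by 6.93 ± 0.82 (adjusted p = 0.00328), Tgfbi by 3.96 ± 0.45 (adjusted p = 0.00287), Fbn1 by 3.60 ± 0.45 (adjusted p = 0.00271) and Tnc by 3.32 ± 1.14 (adjusted p = 0.089). Tnc and Fbln2 lost their call against MamBo89 without the 60-day MamBo43 TRT culture (adjusted p = 0.135 and 0.159) or the 60-day MamBo89 culture (0.13 for both), and Fbln2 also without the other treated MamBo89 culture (adjusted p = 0.119). Against MamBo38, the calls of Fn1 and Tnc were lost without the 60-day MamBo43 TRT culture (adjusted p = 0.103 and 0.204) or either treated MamBo38 culture, and that of Tnc also without the first MamBo38 library. DESeq2 called 4 further genes lower against MamBo38, Postn (-1.10, adjusted p = 0.0419), Thbs1 (-2.23, adjusted p = 0.0502), Fbln2 (-1.98, adjusted p = 0.0629) and Spp1 (-2.00, adjusted p = 0.031). Without the filter, and without either untreated MamBo89 library, 3 further genes were called lower.

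Levels of different genes were compared per kilobase of exon, as CPM per kb. Spp1 was highest of the 10 genes in MamBo89 at 6552 ± 1608 (SD, n = 4), in MamBo43 at 7362 (n = 1) and in MamBo38 at 4658 ± 471 (SD, n = 4). In MamBo43 TRT Fn1 had the highest mean at 3160 ± 336 and Spp1 the next at 2115 ± 1552 (SD, n = 2). In the culture of 30 days on and 30 days off trastuzumab, however, Spp1 (3212) lay above Fn1 (2922). Postn and Thbs1 followed Spp1 in MamBo43 at 340 and 333 CPM per kb. In MamBo89 Thbs2 and Tgfbi were lowest, with 1 count each in all, under the floor of 3 counts, and cannot be ranked. By the mean, the lowest gene elsewhere was Thbs2 in MamBo43 (0.235), Tgfbi in MamBo43 TRT (12.0 ± 2.24) and Tnc in MamBo38 (0.105 ± 0.0558). In the MamBo43 TRT culture of 30 days on and 30 days off, Tnc (11.9) and Thbs2 (12.4) lay below Tgfbi (13.6).

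The relatives of these genes were read from a list of 42 (other thrombospondins, SPARC-like proteins, tenascins, CCN proteins, fibulins, microfibril proteins, bone sialoproteins and fasciclin proteins). Of the 24 that could be tested between HER2-negative and HER2-positive libraries, 11 rose and 2 fell, where 15.8% of all genes were called higher and 17% lower, with a median log2 fold change of 1.74 against -0.04 for all genes. Sparcl1, a SPARC-like matricellular protein, had no count in MamBo89, was at 0.941 CPM in MamBo43 and 2.45 ± 0.906 CPM in MamBo43 TRT (SD, n = 2), and at 74.4 ± 31.0 CPM in MamBo38 (SD, n = 4), so its rise of 7.86 ± 1.56 (adjusted p = 0.00153) rested mainly on MamBo38. Ccn3, a matricellular CCN protein, was likewise at 5.77 ± 2.82 CPM in MamBo43 TRT and 79.8 ± 8.46 CPM in MamBo38, with 0.375 ± 0.029 CPM in MamBo89 (7.20 ± 0.93, adjusted p = 9.61e-05). Emilin1, an elastic fibre glycoprotein, was at 46.6 ± 5.92 CPM in MamBo43 TRT and 72.2 ± 3.55 CPM in MamBo38, without overlap. It was at 0.839 ± 0.501 CPM in MamBo89 and 1.96 CPM in MamBo43 (5.89 ± 0.47, adjusted p = 5.3e-06). Eln, elastin, had 1.25 ± 0.425 CPM in MamBo89, 54.9 CPM in MamBo43, 0.297 ± 0.282 CPM in MamBo43 TRT and no count in MamBo38. Its change (-6.72 ± 1.63, adjusted p = 0.00518) thus rested mainly on the 1 MamBo43 library. Hmcn1, hemicentin 1, was at 8.26 ± 5.66 CPM in MamBo89 and at most 0.596 CPM elsewhere (-4.89 ± 1.24, adjusted p = 0.00662).

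Among 12 receptors tested of 16 listed, 2 rose and 4 fell (15.8% and 17% of all genes). Itga5, the α5 integrin chain of the classical fibronectin receptor, was at 13.9 ± 4.04 CPM in MamBo89, 16.4 CPM in MamBo43, 142 ± 34.0 CPM in MamBo43 TRT and 455 ± 115 CPM in MamBo38 (4.60 ± 0.45, adjusted p = 1.87e-05). Cd47, a thrombospondin receptor, rose by 1.06 ± 0.18 (adjusted p = 0.00058). Itgb3, the β3 chain that pairs with αv to bind osteopontin, fell from 137 ± 46.0 CPM in MamBo89 and 113 CPM in MamBo43 to 5.55 ± 0.61 CPM in MamBo43 TRT and 4.95 ± 0.396 CPM in MamBo38 (-4.68 ± 0.21, adjusted p = 3.5e-07). Itga8, an integrin chain that binds fibronectin, tenascin C and osteopontin, fell by -4.69 ± 0.53 (adjusted p = 3.93e-05), and Sdc4, the syndecan that assists adhesion to fibronectin, by -1.81 ± 0.18 (adjusted p = 1.7e-05). The receptor list as a whole had a median of -0.23.

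Of 11 genes for proteases and other proteins that act on these molecules, 5 rose and 1 fell (15.8% and 17% of all genes). Plau, the urokinase that activates plasmin, rose by 4.29 ± 0.74 (adjusted p = 0.000625), Lgals1, galectin-1, which binds fibronectin glycans, by 4.21 ± 0.29 (adjusted p = 2.45e-06), and Adamtsl4, a fibrillin-binding protein, by 3.26 ± 0.62 (adjusted p = 0.00123). Adamtsl4 was at 10.7 CPM in MamBo89, 5.33 CPM in MamBo43, 16.9 CPM in MamBo43 TRT and 131 CPM in MamBo38, so its rise rested mainly on MamBo38. Adamts10, which acts on fibrillin microfibrils, fell by -3.63 ± 0.50 (adjusted p = 0.000146). Of 12 genes of TGF-β signalling, to which many of the 10 genes respond, 3 were called, a share below the 32.8% of all genes. Of these 1 rose and 2 fell: Smad3 by 1.22 ± 0.22 (adjusted p = 0.000818), Tgfb3 by -3.54 ± 0.36 (adjusted p = 2.17e-05), and Skil by -1.92 ± 0.30 (adjusted p = 0.000334). Tgfb3 was at 666 CPM in MamBo43, 28.2 ± 4.04 CPM in MamBo43 TRT and 28.0 ± 3.55 CPM in MamBo38. Smad3 was at 60.2 CPM in MamBo89, 109 CPM in MamBo43, 121 CPM in MamBo43 TRT and 184 CPM in MamBo38.

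The genes with the pattern most like that of each member were ranked by Pearson's r of log2(CPM + 1) over the 11 libraries. The libraries come from 3 lines and 4 groups and are not independent points, so r is given as a description. Thbs1 was closest to Ccn2 (r = 0.974), Fbln2 to Col8a2 (r = 0.983) and Ccn5 (r = 0.977), Thbs2 to Gypc (r = 0.998), Tgfbi to Arhgap22 (r = 0.998) and Prrx2 (r = 0.997), and Fbn1 to Myg1 (r = 0.992) with Lamb1 at rank 3 (r = 0.987). For Fn1 it was Tmem181a (r = 0.991), for Sparc Slc43a3 (r = 0.984), for Tnc Larp1b (r = 0.982), for Postn Mpc1 (r = 0.974) and for Spp1 Cgnl1 (r = 0.961). Within the set, Thbs2 and Tgfbi were closest (r = 0.977), and Postn was closest to Thbs1 (r = 0.906).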

How the data were processed

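RNA from 11 cultures was sequenced after preparation with an unstranded TruSeq kit (75 nucleotides, single-end). Per the labels and the study's methods, the authors aligned and counted reads with STAR 2.5 and RSEM 1.3.0 and deposited expected counts per gene, for which the submitters' processing notes name mm10. The deposited counts are not normalized, and no value had a fraction, so none was rounded. The annotation used for counting is not given in the sources used here. The authors tested with DESeq2.

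Genes were tested in R 4.3.3 with edgeR 4.0.16 (filterByExpr at its defaults of 10 counts and 15 in total, TMM scaling, glmQLFit and glmQLFTest) over all genes that passed the filter, 12364 in the fit of HER2-negative against HER2-positive libraries and 13782 in the fits of 4 groups and of line by treatment. P-values were adjusted by the Benjamini-Hochberg method over all of them, and a call needed an adjusted p below 0.1 together with a log2 change of 1 or more in size, the study's own limits. The SE is the absolute log2 fold change over the square root of F, and log2 fold changes use a prior count of 0.125. CPM are TMM-scaled over the 11 libraries. Replicates are separate libraries, and where cultures of one line differ in treatment they were still grouped by line, so p-values measure the spread between these cultures. Libraries were grouped by the labels. One MamBo89 library was taken as the clone that the methods list, which its labels do not state, and it counts as a library of that line. With 10 genes fixed by name, all were described. From lists of relatives, receptors, processing genes and TGF-β inputs, up to 3 called genes with the largest change in each direction were named per list, and 3 nearest genes were computed per member. The genes and lists were chosen with earlier results of these data known. The comparison of MamBo43 TRT with MamBo89 and the fits on the compared libraries alone were added after seeing the data. Alternatives were DESeq2 1.42.0, RLE size factors, no filter, covariates for the numeric code in the titles and for the tumor, libraries of a single code, an adjusted p under 0.05, and leaving out each library. The fits were tested on simulated counts. Sequences are RefSeq promoters, and gene spans and shared 75-base windows are from GENCODE M21. Intervals and the floor of 3 counts cover counting error only, as the reads carry no molecular identifiers. Total counts of 17040454 to 27127662 make counting error small for all but the lowest genes, so precision depends mostly on how many libraries a group has.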

Additional observations from a re-analysis of the deposited data

Results flagged for a closer look

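In MamBo38 (n = 4), the second library stood apart from the others in Fn1 (15589 CPM, against 23766 to 25274) and in Sparc (1273 CPM, against 700 to 780) by Dixon's test. It is the only library of its line that shares its numeric title code with the other lines. In MamBo89 (n = 4), the library kept for 60 days in trastuzumab was the only one with a count in Thbs2 and in Tgfbi, 1 count each (0.0551 CPM), which is under the floor of 3 counts. These were 4 of 20 gene and group pairs, and chance flags about 1 in 20. The flags of Thbs2 and Tgfbi follow from a single count beside zeros, so 4 of 20 cannot be set against that rate.

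The change under trastuzumab in MamBo43 differed from that in MamBo89 by an interaction term in Fn1 (7.60 on the log2 scale), Tnc (3.25), Fbn1 (5.37) and Fbln2 (-2.62). It differed from that in MamBo38 in Fn1 (5.69), Tnc (3.32), Thbs2 (6.93), Fbn1 (3.60) and Tgfbi (3.96). Each difference rests on the 1 untreated MamBo43 library, and in the other lines on untreated pairs that include the library standing apart.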

How the results depend on the processing

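No paired analysis was run, as the labels give no replicate numbers, and libraries were not matched by schedule. No call reversed its direction under any alternative. The counts of called genes that moved by over 1.5 times all concern trastuzumab. In MamBo89, DESeq2 called 2 genes (0 higher, 2 lower) where edgeR called 0. The count also moved without the second untreated library, which left only the one taken as the clone. Treatment and clone cannot be told apart in that fit, which gave Sparc 3.98, Fbln2 1.42 and Fbn1 -1.35. For MamBo43 against MamBo89, leaving out the 3 MamBo38 libraries that carry another title code, an adjusted p under 0.05 and the compared libraries alone gave 2 calls each in place of 4, and leaving out a library gave 2 to 6. For MamBo43 against MamBo38, DESeq2 gave 9 (5 higher, 4 lower) and no filter 8 (5 higher, 3 lower) in place of 5, and leaving out a library gave 3 to 8. The cause was not tested. For the other comparisons of groups, the counts stayed within 1.5 times of the main count under all alternatives run, and leaving out a library gave 5 to 6 calls between HER2-negative and HER2-positive libraries, 7 between MamBo38 and MamBo89, and 8 between MamBo43 and MamBo89, where the fit of the compared libraries alone gave 6. DESeq2 gave no adjusted p for Thbs2 in the HER2 comparison. Trastuzumab in MamBo38 could not be fitted with the code of the other lines alone, since only 1 library of the line carries it. RLE size factors lost no call. With 1 untreated MamBo43 library, the spread within that line is unknown, and leaving it out removes its comparisons.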
